A study of Homo sapiens with 6 samples.

Results

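FOS, FOSL1, FOSL2, JUN, JUNB, JUND, ATF3, EGR1, IER3 and MYC are 10 early response genes, chosen by symbol from the 16306 genes of the deposited gene table. All 10 were detected in every library, with between 83 and 6449 counts each, and all 10 were among the 12620 genes that passed the filter on low counts. RNA was sequenced from PC9, a lung adenocarcinoma line of human origin whose EGFR carries an activating deletion, with a control hairpin (sh-NC, 3 libraries) or with a hairpin against the splicing factor RBM10 (shRBM10, 3 libraries). The 6 libraries therefore all came from 1 cell line with constitutively active EGFR, and the labels do not say which RBM10 hairpin was used or whether the libraries came from separate cultures. The p-values below therefore measure only the spread between these libraries, which may be technical. Only 1 shRBM10 column carries a name found among the sample titles, so the shRBM10 libraries are called A, B and C, of which A is replicate 1.

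The Fos proteins (FOS, FOSL1, FOSL2) pair with the Jun proteins (JUN, JUNB, JUND) through leucine zippers to form AP-1, which binds the TGANTCA element. ATF3 belongs to the same superfamily of zipper factors and favours the TGACNTCA element of the cyclic AMP response. EGR1 is a zinc finger factor and MYC, paired with MAX, binds CACGTG. Most of these genes are transcribed within minutes of growth factor or stress signals through the MAP kinases, from messages that are short-lived, and in EGFR-mutant lung cancer the receptor itself feeds this pathway. IER3 is a small protein of the same early wave with a role in survival and ERK signalling.

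The upstream sequences of 4 of these genes are printed here. The 3 Jun genes are given because their levels parted in these libraries, and EGR1 because it had one of the widest spreads within shRBM10. Each line holds the 250 bases before the annotated start, 5′ to 3′ on the gene's strand, from RefSeq on GRCh38.p14. Capitals mark TGACNTCA in JUN (chr1:58784048-58784297, minus strand) and JUND (chr19:18281623-18281872, minus strand), TATAAA in JUNB (chr19:12791236-12791485, plus strand) and both CArG boxes, the element of serum response factor, in EGR1 (chr5:138465229-138465478, plus strand).
JUN: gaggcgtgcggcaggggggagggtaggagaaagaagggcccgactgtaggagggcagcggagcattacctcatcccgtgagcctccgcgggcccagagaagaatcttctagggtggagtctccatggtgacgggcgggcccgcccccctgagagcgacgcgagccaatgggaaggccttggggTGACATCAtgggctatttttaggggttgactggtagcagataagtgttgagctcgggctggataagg
JUNB: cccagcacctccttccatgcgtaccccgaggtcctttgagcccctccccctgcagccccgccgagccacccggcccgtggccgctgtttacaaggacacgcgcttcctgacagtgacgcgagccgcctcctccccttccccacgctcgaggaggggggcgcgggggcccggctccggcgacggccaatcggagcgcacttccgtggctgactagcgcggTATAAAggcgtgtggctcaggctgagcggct
JUND: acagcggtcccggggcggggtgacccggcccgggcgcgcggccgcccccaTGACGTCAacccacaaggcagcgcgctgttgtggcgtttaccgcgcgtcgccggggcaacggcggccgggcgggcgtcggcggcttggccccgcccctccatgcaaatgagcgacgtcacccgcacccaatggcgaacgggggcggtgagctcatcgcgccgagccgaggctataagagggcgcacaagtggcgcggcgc
EGR1: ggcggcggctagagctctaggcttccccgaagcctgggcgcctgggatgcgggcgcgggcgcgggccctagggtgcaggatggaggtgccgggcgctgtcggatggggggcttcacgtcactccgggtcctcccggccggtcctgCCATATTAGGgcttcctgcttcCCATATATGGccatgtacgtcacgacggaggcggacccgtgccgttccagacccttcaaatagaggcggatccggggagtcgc

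The motifs were searched on both strands in windows of 300 bases, 250 before and 50 after the start, which the RefSeq table held for 7 of the 10 genes. TGACNTCA lay 67 bases before the start of JUN, 200 bases before that of JUND and 123 bases before one of the 2 listed starts of ATF3, and 7.72% of all 35116 windows held this element. The CArG boxes of EGR1 began 105 and 83 bases before its start, and 1.29% of windows held one. TATAAA lay 31 bases before the start of JUNB, 33 bases before that of FOS and 230 bases before the other start of ATF3, against 11.5% of windows. The window of FOSL2 held TGANTCA (7.71% of windows), and EGR1 held GCGNGGGCG, the element EGR1 itself binds (9.43% of windows). CACGTG, held by 7.26% of windows, was in 0 of the 8 windows of these genes. A match is a match of letters and was not tested as a binding site.

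RBM10, the targeted gene, had 1418, 1172 and 1455 normalised counts with the control hairpin (replicates 1, 2 and 3) against 532, 510 and 666 with the RBM10 hairpin (libraries A, B and C), the order used for every gene below. A normalised count is the count scaled by the TMM-adjusted library size. The groups of RBM10 did not overlap, and its log2 fold change was -1.24 ± 0.23 (SE, adjusted p = 0.10 by edgeR's quasi-likelihood test), or -0.83 with the trend on GC content removed. In the annotation a protein-coding gene and a pseudogene overlap RBM10 on the opposite strand, and their part in its counts was not tested. The counts on genes summed to between 16606401 and 18864241 per library. As facts of the whole series, sh-NC replicate 2 stood apart (TMM factor 0.738, against 1.03 to 1.08 in the others). The log2 level of a gene relative to its own mean over the 6 libraries correlated with its GC content across genes. The r was 0.358 to 0.432 in the sh-NC libraries and library C, but -0.686 and -0.613 in libraries A and B. These signs compare the libraries with each other. The 10 genes have a median GC content of 56.0%, against 48.8% over the genes tested, so values from a fit without the GC trend of each library (GC trend removed) are given for the 10 genes and for most other genes named.

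The keratin and adhesion markers of an epithelial carcinoma line were abundant in every library (sums of normalised counts of 545170 to 1009780 in sh-NC and 436409 to 645839 in shRBM10), while of 9 such markers the lung lineage genes NKX2-1 and SFTPB did not pass the filter and NAPSA averaged 15.0 and 10.3 normalised counts. Of the fibroblast markers 2 of 6 passed the filter, with sums of 58.3 to 124 in sh-NC and 108 to 202 in shRBM10. Of the leukocyte markers 2 of 5 passed, with sums of 791 to 975 and 1153 to 1658, almost all from CSF1R, and PTPRC had 4, 0 and 5 counts in sh-NC against 6, 7 and 0 in shRBM10. Of the endothelial markers 2 of 4 passed, with sums of 99.0 to 186 and 48.8 to 68.3. Of the retina markers, listed because the protocol text of the labels mentions retinas, 1 of 6 passed, with sums of 8.09 to 12.5 and 17.1 to 36.6. The part of these markers in the values below was not tested.

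With the RBM10 hairpin, 8 of the 10 early response genes had a log2 fold change below 0 and 2, FOS and JUNB, above 0. FOSL1, JUND, MYC and ATF3 were lower in every shRBM10 library than in any sh-NC library, at 39.1%, 50.4%, 54.2% and 58.2% of their sh-NC level. The 10 log2 fold changes had a median of -0.53, against 0.027 over all genes tested. In bulk RNA, fewer cells expressing a gene and less of its RNA per cell cannot be told apart. None of the 10 was called at an adjusted p under 0.05 with an absolute log2 fold change over 1 by edgeR, a rule that called 0.0158% of all genes tested (2 of 12620, both higher in shRBM10). The adjusted p-values of the 10 genes ran from 0.0894 for FOSL1 to 0.681 for FOS.

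At an unadjusted p under 0.05 in the same test, 4 of the 10 were lower (FOSL1, JUND, MYC and ATF3), where 8.60% of all genes were lower and 15.7% higher at that limit. With the fold limit added, FOSL1 was left, against 1.53% of all genes lower and 10.1% higher. The groups did not overlap, with shRBM10 lower, for 4 of 10 genes, against 16.2% of all genes lower and 13.8% higher. Without sh-NC replicate 2, which was left out after the data were seen, 6 of 10 did not overlap (JUN and FOSL2 joined the 4), against 23.4% of all genes. DESeq2's Wald test called FOSL1 and JUND, both lower, where it called 1.00% of all genes lower and 3.64% higher. With the GC trend removed, the same 4 genes were lower at an unadjusted p under 0.05, against 6.40% of all genes, JUNB was higher at that limit (12.2% of all genes), and the median of the 10 was -0.22 against 0.10 over all genes.

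Among the Fos genes, FOSL1 (Entrez gene 8061, chr11:65892049-65900545), which encodes the stable FRA-1 protein found in many epithelial cancers, showed the lowest fold change of the 10. Its normalised counts were 1468, 1569 and 1406 in sh-NC against 543, 518 and 675 in shRBM10. The highest shRBM10 library was far below the lowest sh-NC library, and the spread within each group was small (1481 ± 82.4 against 579 ± 84.0, SD, n = 3). The log2 fold change was -1.36 ± 0.22 (SE, edgeR adjusted p = 0.0894), the 17th smallest p of all genes. It was -0.94 with the GC trend removed (adjusted p = 0.0826 by edgeR). It passed the rule without sh-NC replicate 2 (-1.39, adjusted p = 0.0489 by edgeR) and with DESeq2 (-1.37, adjusted p = 0.000146).

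FOS (chr14:75278828-75282230), the fast and short-lived founder of the family, was the least abundant of the 10 per kilobase in sh-NC. It had 236, 194 and 271 normalised counts in sh-NC against 273, 78.8 and 549 in libraries A, B and C. Library B was the lowest and library C the highest of all 6, so that the spread within shRBM10 (300.1 ± 236, SD, n = 3) exceeded the difference from sh-NC (234 ± 38.5). The log2 fold change of 0.36 ± 0.55 (SE, edgeR adjusted p = 0.681) turned to -0.48 without library C and to -0.036 with limma-voom.

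FOSL2 (chr2:28392858-28417317), which encodes FRA-2, had 2278, 1206 and 2317 normalised counts in sh-NC against 1442, 1352 and 1684 in shRBM10. The groups overlapped through sh-NC replicate 2 alone, which was the lowest of all 6. This gave a log2 fold change of -0.37 ± 0.28 (SE, edgeR adjusted p = 0.397), or -0.70 without that library (adjusted p = 0.115) and -0.10 with the GC trend removed. An antisense gene and an intronic gene on the same strand overlap FOSL2 in the annotation. The sources used here do not say whether reads were counted by strand, and such counting would not set the intronic gene apart.

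Among the Jun genes, JUND (chr19:18279694-18281622), the family member that is usually expressed without stimulation, had 1082, 1550 and 1103 normalised counts in sh-NC against 563, 592 and 727 in shRBM10. The groups were apart, and the highest shRBM10 library was below the lowest sh-NC library. For JUND the log2 fold change was -0.99 ± 0.24 (SE, edgeR adjusted p = 0.142), and -1.0 by DESeq2 (adjusted p = 0.0237). JUND has the highest GC content of the 10 (69.7%), and with the GC trend removed its log2 fold change was -0.47.

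JUN (chr1:58780791-58784047), the classical partner of FOS, had 4171, 3193 and 4645 normalised counts in sh-NC against 2816, 1560 and 3420 in shRBM10. Library C lay above sh-NC replicate 2, and libraries A and B lay below every sh-NC library. For JUN the log2 fold change was -0.62 ± 0.31 (SE, edgeR adjusted p = 0.233), -0.28 with the GC trend removed, -0.36 without library B and -0.94 without library C.

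JUNB (chr19:12791486-12793315), which can act as a weaker activator than JUN, had a fold change of the other sign except without library C. It had 3816, 4458 and 3963 normalised counts in sh-NC against 4267, 3741 and 6136 in shRBM10. Library B was the lowest and library C the highest of all 6, with library A among the sh-NC values. In JUNB this came to a log2 fold change of 0.21 ± 0.25 (SE, edgeR adjusted p = 0.599), 0.67 with the GC trend removed (adjusted p = 0.141), and -0.072 without library C. HOOK2 overlaps JUNB on the opposite strand, and its log2 fold change was 0.11 ± 0.21 (SE, edgeR adjusted p = 0.756).

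To compare levels within a family, normalised counts were divided by the length of the gene's most counted transcript. JUNB made up 54.4%, 58.6% and 53.3% of the Jun counts per kilobase in sh-NC and 68.1%, 73.0% and 71.3% in shRBM10. Its share was 55.4% ± 2.76 against 70.8% ± 2.50 (SD, n = 3), 15.4 points higher with no overlap (two-sided exact permutation p = 0.1, as low as 3 libraries in each group can give). The share of JUND was 16.5% ± 2.96 against 9.44% ± 1.63 (exact permutation p = 0.1), and that of JUN was 28.1% ± 5.71 against 19.7% ± 3.77 (exact permutation p = 0.2), where library A, at 23.1%, lay above sh-NC replicate 2, at 21.6%. The summed Jun counts per kilobase were 4040 ± 168 in sh-NC and 3661 ± 975 in shRBM10 and overlapped (exact permutation p = 0.6). The 3 genes differ in GC content (56.7% in JUN, 64.9% in JUNB and 69.7% in JUND), and with the GC trend removed JUNB was at 0.67 on the log2 scale, against -0.28 for JUN and -0.47 for JUND.

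In the Fos family the sum was 1284 ± 64.6 normalised counts per kilobase in sh-NC against 708 ± 184 in shRBM10, with no overlap (exact permutation p = 0.1). FOSL1 took 69.4% ± 7.31 of it in sh-NC and 49.9% ± 6.16 in shRBM10 (exact permutation p = 0.1), while FOSL2 took 22.2% ± 6.40 and 32.2% ± 4.58 (exact permutation p = 0.1). The share of FOS was 8.24%, 7.43% and 9.56% in sh-NC and 18.9%, 6.65% and 28.0% in libraries A, B and C, so it was above every sh-NC library in A and C and below in B (exact permutation p = 0.4). With the GC trend removed, the log2 fold changes were -0.94 for FOSL1, -0.10 for FOSL2 and 0.55 for FOS. FOSL1 was the leading Fos gene and JUNB the leading Jun gene in all 6 libraries. These 8 permutation tests were not adjusted, since none can go below 0.1.

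ATF3 (chr1:212565407-212620777), a stress-induced factor that can repress as a homodimer and activate with JUN, had 443, 514 and 418 normalised counts in sh-NC against 236, 272 and 292 in shRBM10. All 3 shRBM10 libraries were below every sh-NC library. In ATF3 the log2 fold change was -0.78 ± 0.25 (SE, edgeR adjusted p = 0.156). ATF3 has the lowest GC content of the 10 (46.7% in its longest transcript). In the fit with the GC trend removed, which used that transcript, its log2 fold change was -0.83 (edgeR adjusted p = 0.126). It was the only one of the 4 non-overlapping genes that came no closer to 0 in that fit. However, NM_001674 held 92.9% to 99.0% of the ATF3 counts. Its GC content is 50.8%, above the median of 48.8% over the genes tested. A fit with that value was not tested.

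EGR1 (chr5:138465479-138469303) had 1990, 1073 and 2221 normalised counts in sh-NC against 1549, 346 and 2003 in shRBM10. Library B was far below the other two shRBM10 libraries, and sh-NC replicate 2 was the lowest of its group. EGR1 had a log2 fold change of -0.44 ± 0.53 (SE, edgeR adjusted p = 0.600), -0.16 with the GC trend removed, -0.78 without sh-NC replicate 2 and 0.011 without library B. IER3 (chr6:30743199-30744547) had 2532, 3451 and 2750 normalised counts in sh-NC against 2292, 1647 and 2798 in shRBM10, and library C lay within the sh-NC range. Its log2 fold change was -0.37 ± 0.26 (SE, edgeR adjusted p = 0.362), 0.025 with the GC trend removed, -0.19 without library B and -0.61 without library C. As for FOSL2, an antisense gene overlaps IER3 in the annotation, and strand use is not known.

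MYC (chromosome 8, 127735434 to 127742951), which drives growth and ribosome synthesis, had 3981, 3257 and 4207 normalised counts in sh-NC against 2172, 1565 and 2472 in shRBM10. The highest shRBM10 library was below the lowest sh-NC library. The log2 fold change was -0.88 ± 0.25 (SE, edgeR adjusted p = 0.153), -0.59 with the GC trend removed, and -1.07 without sh-NC replicate 2 (adjusted p = 0.0982 by edgeR). DESeq2 gave -0.90 with an adjusted p of 0.0448, short of the fold limit.

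**Figure D1:**
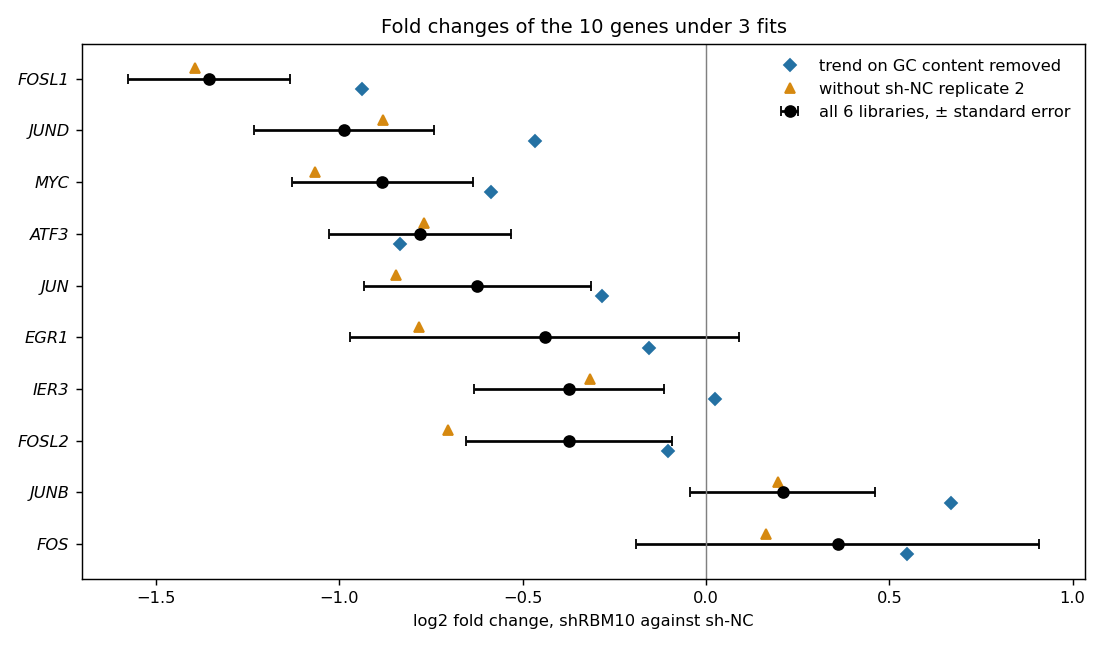
Log2 fold change of shRBM10 against sh-NC (x axis) of the 10 genes by edgeR with all 6 libraries (black circle with the standard error), with the trend on GC content removed (blue diamond) and without sh-NC replicate 2 (orange triangle). FOSL1, JUND, MYC, ATF3, JUN, EGR1 and FOSL2 are below 0 in all 3 fits, JUNB and FOS above 0, and IER3 crosses 0 with the GC trend removed.

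Per kilobase, IER3 (2340 ± 386) and JUNB (2241 ± 185) were the most abundant in sh-NC and differed by less than their SDs. MYC (1612 ± 210), JUN (1131 ± 209) and FOSL1 (887 ± 49.4) came next, then JUND (668 ± 142) and EGR1 (561 ± 194), which were within their spread of each other, and FOSL2 (288 ± 94.0), ATF3 (225 ± 24.5) and FOS (108 ± 17.8). In shRBM10 the order began with JUNB (2590 ± 691), IER3 (1805 ± 464), MYC (875 ± 195) and JUN (734 ± 268). FOSL1 (347 ± 50.3) and JUND (337 ± 46.8) differed by less than their SDs, EGR1 (414 ± 273) had a spread wider than its gap to either, and FOSL2 (223 ± 25.6), FOS (139 ± 109) and ATF3 (131 ± 14.0) were the least abundant.

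The libraries differed within shRBM10 as well as from sh-NC. Against the sh-NC mean, the median of the 10 genes was -0.47 in library A, -1.18 in library B and -0.21 in library C on the log2 scale, while the median over all genes lay between -0.030 and 0.010 in these 3 libraries. These medians still hold the GC trend of each library. Over the 10 genes that trend ran from -0.65 (JUND) to 0.092 (ATF3) in library A and from -0.32 (JUNB) to 0.035 (ATF3) in library B. It ran from -0.029 (ATF3) to 0.19 (JUND) in library C and from -0.060 (ATF3) to 0.38 (JUND) in sh-NC. Its part in the medians was not tested. Library B was the lowest shRBM10 library for 8 genes and library C the highest for all 10. sh-NC replicates 1 and 3 lay closer to each other than to replicate 2 for each of the 10 genes, and replicate 2 was the lowest of sh-NC for 5 genes (FOS, FOSL2, JUN, EGR1 and MYC) and the highest for the other 5.

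Over the 6 libraries, which share these differences between libraries, the genes of the lists below most alike in pattern were described by Pearson's r, with Spearman's rho beside it, of log2 normalised counts with 119 genes. For FOS these were FOSB (r = 0.939, rho = 0.829), its closest relative, and PLAU (r = 0.935, rho = 0.6), the urokinase gene. For EGR1 they were PHLDA1 (r = 0.951, rho = 0.829) and JUN (r = 0.938, rho = 0.886). For MYC they were CCN1 (r = 0.988, with the same order of all 6 libraries) and PPP1R15A (r = 0.985, rho = 0.943), both early response genes, whose groups also lay apart. CCN1, a secreted matrix protein, had 3804, 3055 and 3954 normalised counts in sh-NC against 2037, 1301 and 2590 in shRBM10.

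RBM10 is a splicing factor, so the share of each gene's transcripts was tested as well. FOS, JUN, JUNB and EGR1 have 1 listed transcript each, and of ATF3 too few transcripts passed the filter. The remaining 5 (FOSL1, FOSL2, JUND, IER3 and MYC) had Simes p-values of 0.912 to 0.999 and none was called by edgeR's diffSpliceDGE, a test that called 3.40% of the 8350 genes it covered, and none by limma's diffSplice. NM_005438 held 88.9% to 94.4% of the FOSL1 counts in the 6 libraries, and NM_002467 held 82.9% to 87.6% of those of MYC. The 2 transcripts of JUND had equal counts in every library, and the 5 listed rows of IER3 are copies of 1 accession, so neither test speaks of different messages.

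Among 10 other zipper partners of AP-1, 8 had a log2 fold change below 0. None was called by edgeR, and DESeq2 called BATF2, higher, where it called 3.64% of all genes higher. At an unadjusted p under 0.05 in edgeR 1 was higher and 2 lower, against 15.7% and 8.60% of all genes. The median was -0.27, and 0.048 with the GC trend removed. MAFF, a small Maf protein, had 1507, 1442 and 1504 normalised counts in sh-NC against 944, 897 and 1009 in shRBM10, with a log2 fold change of -0.64 (-0.18 with the GC trend removed). JDP2, a Jun dimerisation partner that represses AP-1 sites, was at -0.58 (-0.36 with the GC trend removed). BATF2, an interferon-inducible partner, stood higher in all 3 shRBM10 libraries (51.6 ± 9.38 against 119 ± 17.6 normalised counts, SD, n = 3), with a log2 fold change of 1.21 (adjusted p = 0.141 by edgeR), or 1.59 with the GC trend removed. FOSB differed by less than its spread (37.6 ± 1.67 against 36.3 ± 6.99).

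Of 31 other early response genes, 30 were tested, and 20 had a log2 fold change below 0, with a median of -0.28 (-0.084 with the GC trend removed). The groups did not overlap for 10 genes lower and 3 higher in shRBM10, against 16.2% and 13.8% of all genes. None was called by edgeR, while 10 were lower and 2 higher at an unadjusted p under 0.05, against 8.60% and 15.7% of all genes. DESeq2 called 3, all lower, where it called 1.00% of all genes lower. KLF2, a Krüppel-like factor induced by MEK5 and ERK5, had 71.9, 59.7 and 82.2 normalised counts in sh-NC against 14.2, 11.4 and 27.6 in shRBM10. Its log2 fold change was -2.00 ± 0.39 (SE, edgeR adjusted p = 0.108), and -1.60 with the GC trend removed. RHOB, a growth factor-inducible small GTPase, had 1981, 2071 and 2005 against 1011, 716 and 1282, a log2 fold change of -1.01 (adjusted p = 0.144 by edgeR), or -0.64 with the GC trend removed. TIPARP, a target of the dioxin receptor, and MCL1, a survival factor, stood higher in shRBM10, at log2 fold changes of 0.97 and 0.87 (0.54 and 0.65 with the GC trend removed), with library C closest to sh-NC in both. Without library A TIPARP was at 0.60.

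Of the factors that switch on EGR1 and FOS through the CArG box and its neighbours, 6 were tested. SRF itself was lower in every shRBM10 library, with 1281, 992 and 1227 normalised counts in sh-NC against 622, 754 and 805 in shRBM10. Its log2 fold change was -0.68 (adjusted p = 0.158 by edgeR), and -0.26 with the GC trend removed. The list had 3 genes above and 3 below 0 and a median of 0.13. Of the EGR1 corepressors, NAB1 had a log2 fold change of 0.94 (107, 61.0 and 111 against 229, 188 and 123 normalised counts), or 0.39 with the GC trend removed, and NAB2 was at -0.059. None of these 8 genes was called by edgeR or DESeq2. SRF (lower) and NAB1 (higher) had an unadjusted p under 0.05 in edgeR, against 8.60% of all genes lower and 15.7% higher.

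Of the MYC network, 10 genes were tested, 5 above and 5 below 0, with a median of 0.026. None was called by edgeR or DESeq2, and MXI1 alone had an unadjusted p under 0.05 in edgeR (higher, against 15.7% of all genes). This gene, whose product competes with MYC for MAX, had 147, 179 and 179 normalised counts in sh-NC against 287, 324 and 239 in shRBM10, a log2 fold change of 0.75 (adjusted p = 0.170 by edgeR), or 0.44 with the GC trend removed. MAX, the obligate partner of MYC, was at -0.18. Of 20 textbook MYC targets 19 were tested, 11 below and 8 above 0. Their median was -0.32 (-0.19 with the GC trend removed and -0.21 without sh-NC replicate 2). The groups did not overlap, with shRBM10 lower, for 8 of them, against 16.2% of all genes. None was called by edgeR, and DESeq2 called ODC1, where it called 1.00% of all genes lower. At an unadjusted p under 0.05 in edgeR 7 were lower and 3 higher, against 8.60% and 15.7% of all genes. ODC1, the first enzyme of polyamine synthesis, had 5205, 10597 and 5568 normalised counts in sh-NC against 3431, 3091 and 2839 in shRBM10. The log2 fold change of ODC1 was -1.19 (adjusted p = 0.144 by edgeR), or -0.95 with the GC trend removed. Without sh-NC replicate 2, its highest library, it was -0.87. PPAN, a ribosome assembly factor, was at -0.89 (-0.43 with the GC trend removed), and its reads may be shared with its read-through transcript.

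Of 16 AP-1 targets 13 were tested, 8 below and 5 above 0, with a median of -0.10 (0.19 with the GC trend removed). MMP13, a collagenase with a well-known AP-1 site, was the 1 gene of all these lists that edgeR called. It had 33.2, 32.5 and 34.0 normalised counts in sh-NC against 338, 296 and 199 in shRBM10, a log2 fold change of 3.06 ± 0.33 (SE, edgeR adjusted p = 0.0268) and 2.46 with the GC trend removed. The call was lost without sh-NC replicate 3 and without library A, B or C (adjusted p = 0.134, 0.179, 0.214 and 0.0562 by edgeR), with a log2 fold change between 2.89 and 3.19. SPP1, which encodes osteopontin, had 1226, 1670 and 1282 against 3927, 3915 and 3113 (log2 fold change 1.39, adjusted p = 0.0894 by edgeR, and 0.94 with the GC trend removed), and edgeR called it without sh-NC replicate 2 (1.46, adjusted p = 0.0489). IL11, a cytokine of the IL-6 family, had 1265, 1458 and 1239 against 478, 412 and 651 (log2 fold change -1.36, adjusted p = 0.10 by edgeR, and -1.03 with the GC trend removed). HMGA1, a chromatin protein, was at -0.68, or -0.25 with the GC trend removed. DESeq2 called MMP13 and SPP1 higher and IL11 lower, where it called 3.64% of all genes higher and 1.00% lower. At an unadjusted p under 0.05 in edgeR 2 genes were higher and 2 lower, against 15.7% and 8.60% of all genes. The AP-1 targets thus lay on both sides, and MMP1, MMP3 and MMP10 did not pass the filter.

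Of 6 EGR1 targets, 5 were below and 1, ICAM1, above 0, with a median of -0.047. None was called by edgeR or DESeq2, and ICAM1 alone had an unadjusted p under 0.05 in edgeR (higher, against 15.7% of all genes). The groups of ICAM1, an adhesion molecule, lay apart (1048 ± 83.7 against 1682 ± 211 normalised counts, SD, n = 3), with a log2 fold change of 0.68, and 1.04 with the GC trend removed. Of 6 factors that act on AU-rich messages, such as those of FOS and IER3, 3 were above and 3 below 0 (median -0.057), with none called by edgeR or DESeq2 and 0 at an unadjusted p under 0.05. ZFP36 was at -0.15.

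Heat shock and handling stress genes, listed because early response genes also react to how cells are harvested, had a median log2 fold change of 0.51 over 8 genes (0.60 with the GC trend removed). The groups lay apart, with shRBM10 higher, for 4 of the 8, all at an unadjusted p under 0.05, where 13.8% of all genes lay apart and higher and 15.7% were higher at that p. None of the 8 was called by edgeR, and DESeq2 called HSPH1 and HSP90AA1, both higher, where it called 3.64% of all genes higher. HSPH1 had 771, 354 and 778 normalised counts in sh-NC against 2111, 1699 and 856 in shRBM10, and HSP90AA1 had 9402, 7117 and 10833 against 27827, 21182 and 12653. Their log2 fold changes were 1.29 and 1.17 (adjusted p = 0.153 for both by edgeR), or 0.71 and 0.96 with the GC trend removed, and library C was closest to sh-NC in both. HSPA1A and HSPA1B, whose groups also lay apart, had library C farthest from sh-NC. HSPA1A had 3433, 3107 and 3423 against 4571, 5123 and 7351, and HSPA1B had 3366, 2946 and 3300 against 4185, 4537 and 6479. Their log2 fold changes were 0.77 and 0.66, or 1.16 and 1.03 with the GC trend removed. The part of these genes in the values of the 10 early response genes was not tested.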

How the data were processed

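RNA-seq libraries of 3 sh-NC and 3 shRBM10 PC9 samples were compared. The authors deposited estimated counts per gene and per RefSeq transcript, of which 87.5% and 41.1% were whole numbers, and these were rounded to whole numbers here. Per the labels, the build was hg38 and 2 library kits are described without saying which served which library. The aligner, the counter and strand use are not given in the sources used here. Beside the 6 columns used, 18 other per-library columns and 8 columns of group means in each table were not used. The names of 2 shRBM10 columns match no sample title.

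Genes were filtered with filterByExpr, normalised by TMM, and tested by the quasi-likelihood F test of edgeR 4.0.16 (R 4.3.3; glmQLFit, glmQLFTest) on all genes, with Benjamini-Hochberg adjustment over the 12620 genes tested. The standard error is the log2 fold change divided by the square root of F. Transcript usage was tested with diffSpliceDGE. The main edgeR fit, DESeq2, limma-voom and diffSpliceDGE were run on simulated counts that held no GC trend. The fits with trends removed were not tested on simulated data. GC content came from the longest GENCODE 29 transcript of each symbol (99.59% of genes tested), transcript lengths from GENCODE 29, and positions and sequences from RefSeq (GRCh38.p14). Alternatives were DESeq2 1.42.0, limma-voom (limma 3.58.1), RLE, upper quartile or library size scaling, other filters and thresholds, trends on GC content and length removed, and leaving out each library. Single values were compared with exact permutation tests (scipy 1.17.1).

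The genes and lists were chosen with earlier results of these data known. One gene of the EGR1 target list is not reported here. Named genes are the 10, RBM10 and, from each list, up to 2 in each direction with the smallest p among those with an unadjusted p under 0.05 and groups that do not overlap, plus the 2 genes most alike to each of FOS, EGR1 and MYC. Other genes (NAB2, MAX, ZFP36, NAPSA, CSF1R, PTPRC, HOOK2, HSPA1A, HSPA1B) were named after their values were seen.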

Additional observations from a re-analysis of the deposited data

How the results depend on the processing

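The fold changes of FOSL1, FOSL2, JUN, JUND, ATF3 and MYC were below 0 under all 16 alternatives, and the calls depended on the test and on single libraries. Of the 10 genes edgeR called 0; DESeq2 called 2, and 1 was called with no filter, at the unadjusted p with the fold limit, and with the GC trend removed without sh-NC replicate 2 (added after seeing the data). Leaving out 1 library gave 0 to 1, the 1 being FOSL1 without sh-NC replicate 2. Without that library 6 genes had groups that did not overlap, against 4. The pathway lists had 1 call; DESeq2 gave 10, library size scaling 0, no filter 2, GC and length trends removed 6, GC trend removed without sh-NC replicate 2 6, the unadjusted p 10, and leaving out 1 library 0 to 2. Over all genes 2 were called; DESeq2 gave 574, library size scaling 0, no filter 31, GC trend removed 8, GC and length trends removed 124, GC trend removed without sh-NC replicate 2 248, the unadjusted p 1466, and leaving out 1 library 0 to 23. The median of the 10 genes moved from -0.53 to -0.22 with the GC trend removed and ranged from -0.91 (without library C) to -0.33 when 1 library was left out. RBM10 passed with DESeq2 (-1.26), without sh-NC replicate 2 (-1.42) and with the GC trend removed without sh-NC replicate 2 (-1.05), and ranged from -1.43 to -1.17 when 1 library was left out. The sign turned for FOS with limma-voom (-0.036) and without library C (-0.48, range to 0.81), for JUNB without library C (-0.072, range to 0.35), for EGR1 without library B (0.011, range from -0.98), and for IER3 with the GC trend removed (0.025), with GC and length trends removed (0.22) and with the GC trend removed without sh-NC replicate 2 (0.017). The cause was not tested. Of the other values, 430 kept their direction and side of the threshold, 5 lost the call (MMP13) and 22 gained one. No paired analysis was possible because the columns of 2 shRBM10 libraries carry no replicate number.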
